A study of Sus scrofa with 24 samples.

Results

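Interferon-stimulated genes are the genes that cells switch on when an interferon binds its receptor. The set described here holds 37 of them, chosen by name, and 33 had a probe on the array, of 9139 genes named by the same rule. A probe belonged to a gene when its gene name or the symbol in its description was spelled exactly as the member, and a gene with several probes was represented by the one with the highest mean over all arrays. The 33 were measured in 72 probes, and all 33 passed the filter on dim signals, as did 7783 of the named genes with the members counted in. IRF8, RSAD2, IFITM3 and EIF2AK2 were not matched and were not analysed here.

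The samples came from 6 crossbred pigs (Sus scrofa) of 10 weeks that had been weaned at 28 days and had free access to standard feed. No infection, immunisation or drug is named for any animal, and all groups are treated here as resting tissue of conventionally fed animals. The labels alone do not establish that no animal was infected. Each animal, numbered 68, 69, 70, 71, 73 and 75, gave liver (Liver), spleen (Spleen), jejunum free of Peyer's patches (Jejunum) and jejunum with a Peyer's patch (Peyer), which makes 24 one-colour arrays with n = 6 per tissue. Every sample is a piece of whole tissue, so fewer cells of a type and less RNA per cell cannot be told apart in any value below.

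Interferons are secreted proteins that warn neighbouring cells of infection. Type I and type III interferons act through a transcription factor complex that contains STAT2 and IRF9, and interferon gamma, made by T cells and NK cells, induces IRF1, the guanylate-binding proteins and the chemokines CXCL9, CXCL10 and CXCL11. The products sense viral RNA, degrade it, block its translation, trap budding virus or attract lymphocytes. A low level of many of these genes is also present in uninfected tissue, above all where cells meet microbes.

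The measurement of each gene rests on 60-base probes, and 7 of the 72 are printed here because the results turn on them or because they show how far a probe decides a value. No reference that places them on a transcript was used. The pair for ISG15, the ubiquitin-like modifier, shares 43 bases in capitals and differs by T44C over the 55 bases both span, counted from 1 at the 5′ end of the probe used. Both ISG15 probes gave nearly the same differences between Spleen and Liver, at 0.77 and 0.81 on the log2 scale.
ISG15, probe used: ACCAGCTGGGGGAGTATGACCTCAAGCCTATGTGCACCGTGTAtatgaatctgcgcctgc
ISG15, other probe: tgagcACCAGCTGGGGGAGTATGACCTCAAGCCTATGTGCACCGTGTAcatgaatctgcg
BST2, which encodes the membrane anchor tetherin, shows the opposite case. Its probes share no run of 12 bases, the one used was well above background on all 24 arrays, and the other was so on 1 of 6 Liver and 1 of 6 Jejunum arrays and did not pass the filter.
BST2, probe used: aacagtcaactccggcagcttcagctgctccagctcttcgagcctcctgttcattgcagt
BST2, other probe: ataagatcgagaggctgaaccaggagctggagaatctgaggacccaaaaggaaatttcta
The remaining probes belong to genes that differed between animals (IFI44L and DHX58) and to the gene with the largest difference between Spleen and Jejunum (OAS1).
IFI44L, probe used: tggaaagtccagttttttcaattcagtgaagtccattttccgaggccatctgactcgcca
DHX58, probe used: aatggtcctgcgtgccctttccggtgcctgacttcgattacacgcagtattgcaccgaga
OAS1, probe used: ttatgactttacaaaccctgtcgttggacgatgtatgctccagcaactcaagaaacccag
Among the 33 probes used, no run shared by probes of different members was longer than 9 bases. In the RefSeq annotation of Sscrofa11.1, used for gene order only, 16 of the 37 members have another member as their direct protein-coding neighbour. The IFIT genes stand in the order IFIT2, IFIT3, IFIT1, IFIT5 (the last under a provisional symbol), and OAS1 with OAS2, MX1 with MX2, GBP1 with GBP2, IFI44 with IFI44L and CXCL10 with CXCL11 are direct neighbours too.

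A level is the log2 signal of a probe after the 75th percentile of that array was subtracted, and the level of one probe is not comparable with that of another. The 75th percentile of the signal ranged from 275 to 2262 over the arrays, and 60.4% to 75.6% of probes were well above background. Liver and Spleen of each animal lay together on slides 1 to 3, and Jejunum and Peyer on slides 4 to 6, with 2 animals per slide. Spleen minus Liver and Peyer minus Jejunum are therefore comparisons within slides, whereas in the other 4 comparisons tissue and slide set cannot be told apart. Mean levels of marker lists matched the labels for hepatocytes (8.87 to 9.09 in Liver, at most 0.74 elsewhere) and intestinal epithelium (5.36 to 7.23 in both gut tissues, at most -1.49 elsewhere). The 0.74 was the Spleen array of animal 68, where the other Spleen arrays lay at -3.25 to -0.60. The -1.49 was the Spleen array of animal 73, where the others lay at -4.67 to -4.02. Within the hepatocyte list APOA1 was also high in the gut, averaging 9.88 in Liver, 9.47 in Jejunum and 8.74 in Peyer. The Peyer array of animal 71 stood apart, since its 3 measured B cell markers averaged -1.90 while the other 5 Peyer arrays lay at 1.46 or above and the Jejunum arrays at -4.76 or lower.

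A member was called between tissues at a limma adjusted p under 0.05, taken over all probes tested, and a difference of at least 2-fold. Between Spleen and Liver 14 members were higher, 1 was lower and 18 were not called, so 45.5% were called where 39.8% of all named genes were. The background was 21.4% for higher and 18.4% for lower genes, and the median difference of the members was 0.77 against 0.11 over all named genes. Between Peyer and Jejunum 1 member was lower and 0 were higher (13.4% of named genes called, 6.05% higher and 7.32% lower), with a median of -0.13 against -0.11. At an unadjusted p under 0.05 limma gave 8 of 33 members there, against 54.0% of the named genes.

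In the comparisons that cross the slide sets, Peyer minus Spleen gave 2 higher and 11 lower members (25.9% of named genes called in either direction, 15.3% lower), with a median of -0.65 against -0.11. Jejunum minus Liver gave 7 higher and 4 lower (33.9% called), with a median of 0.15 against -0.0019. Peyer minus Liver gave 7 higher and 2 lower (41% called), with a median of 0.25 against -0.03. Spleen minus Jejunum gave 11 higher and 2 lower (30.9% called, 15.5% higher), with a median of 0.60 against 0.15. By the probe used, 23 members were called in at least 1 comparison and 10 in none. These comparisons share tissues, so their counts are not independent of each other. In the authors' deposited table, which is a log2 table of 44600 probes, the mean of slides 4 to 6 minus that of slides 1 to 3 is close to 0 for every probe (SD over probes 0.12, from -0.75 to 0.58), where the scanner values of the same probes have an SD of 1.47 and run from -9.95 to 14.08. That table therefore holds almost none of the difference between the gut and the other tissues, and with it 4, 6, 7 and 5 members were called in these 4 comparisons.

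Relative to each of the other 3 tissues, Spleen was higher in 4 members, IFIT2, MX2, BST2 and CXCL9 (background 5.99%), and lower in 0 (background 5.33%). Liver was lower than each of the others in 6 members, IRF1, IRF7, OASL, ISG20, GBP1 and GBP2 (background 8.81%), and higher than each of them in 1, IFI6 (background 10.7%). Jejunum and Peyer had 0 members on either side, where 2.54% and 0.565% of named genes were higher and 1.16% and 1.08% lower.

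**Figure D1:**
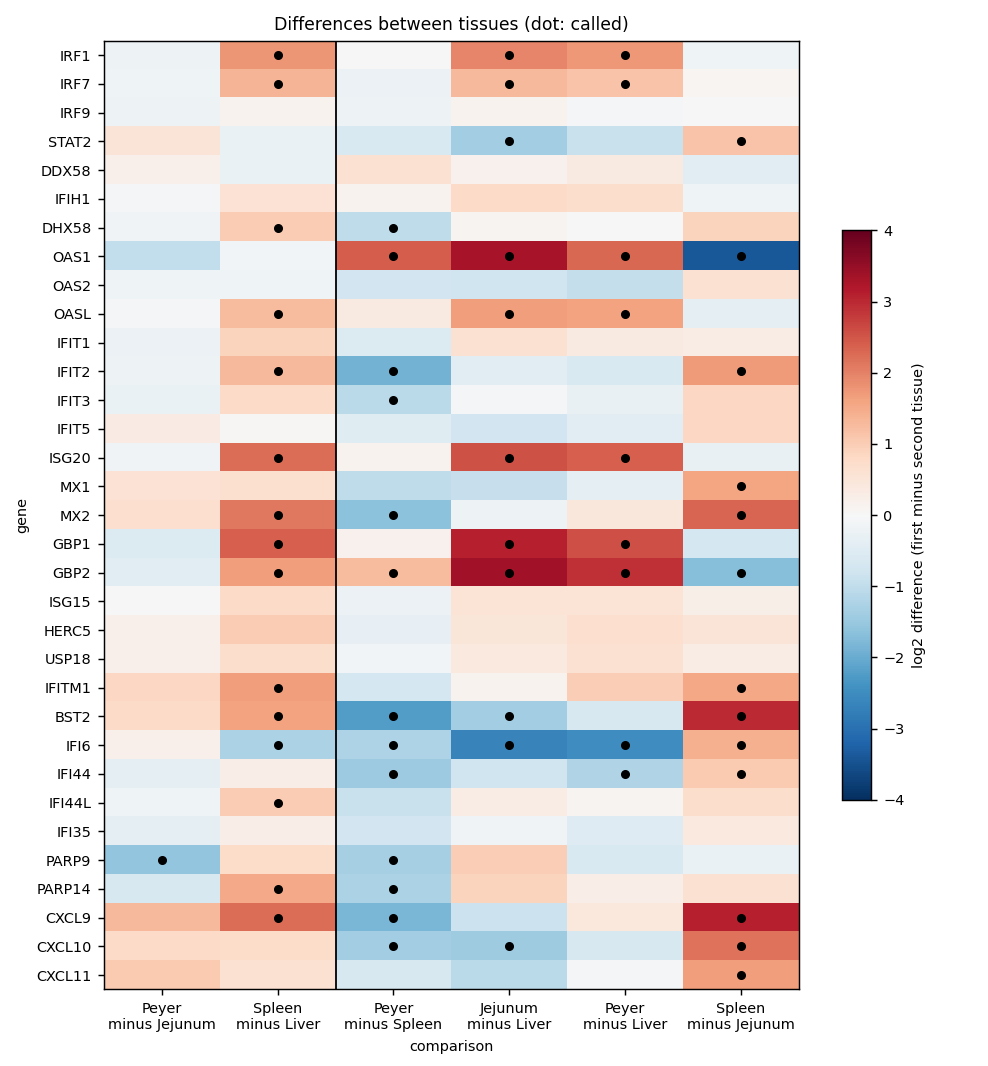
Log2 difference between tissues for the 33 measured genes (rows) in 6 comparisons (columns), where red is higher in the tissue named first and a dot marks a call at a limma adjusted p under 0.05 and at least 2-fold. The line separates the 2 comparisons made within slides, with 1 and 15 calls, from the 4 that cross slide sets, with 13, 11, 9 and 13.

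Among the transcription factors, IRF1 and IRF7 had their lowest levels in Liver. IRF1, which switches on genes of the interferon gamma response, had a level of 0.98, 1.35 and 1.62 (lowest, median and highest of 6 animals) in Liver, 2.73, 3.10 and 3.39 in Spleen, 2.70, 3.24 and 3.83 in Jejunum and 2.90, 2.97 and 3.39 in Peyer. No Liver sample reached the lowest sample of any other tissue, while the other 3 tissues overlapped. Spleen exceeded Liver by 1.77 ± 0.19 (SE of the difference, limma adjusted p = 1.1e-08), Jejunum by 1.95 and Peyer by 1.74, each in 6 of 6 animals.

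IRF7, which drives interferon alpha genes once activated, ranged from 2.51 through a median of 2.82 to 3.87 in Liver, from 3.45 through 4.21 to 5.15 in Spleen, from 3.93 through 4.19 to 4.56 in Jejunum and from 3.45 through 3.96 to 5.03 in Peyer. The highest Liver sample, animal 70, reached into the Spleen and Peyer ranges but not into that of Jejunum. Spleen was higher than Liver by 1.37 ± 0.28 (adjusted p = 0.00014), Jejunum by 1.30 and Peyer by 1.14. The Spleen call was lost when all IRF7 probes were averaged, and the Peyer call also without animal 73.

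STAT2 went the other way, with levels of 3.57, 3.75 and 3.99 in Liver, 3.03, 3.51 and 4.00 in Spleen, 2.12, 2.35 and 2.69 in Jejunum and 2.43, 2.80 and 3.60 in Peyer. The Jejunum samples lay below all Liver and Spleen samples. Jejunum was lower than Liver at -1.40 ± 0.18 (adjusted p = 4.6e-07), and Spleen was higher than Jejunum by 1.13 ± 0.18. The latter call was lost without animal 70 (0.98), when all STAT2 probes were averaged (0.90) and in the authors' table (0.097). IRF9, the DNA-binding partner of STAT2, was called in no comparison, and its tissue medians lay between 0.58 and 0.84.

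The RNA sensors differed little between tissues. DDX58, which encodes RIG-I, and IFIH1, which encodes MDA5, detect viral RNA in the cytoplasm, and neither was called in any comparison, with differences from -0.43 to 0.62 for DDX58 and from -0.17 to 0.76 for IFIH1. DHX58, which encodes the related regulator LGP2, had levels of -0.44, 0.19 and 1.27 in Liver, 0.34, 1.14 and 2.07 in Spleen, -0.29, 0.26 and 1.24 in Jejunum and -0.27, -0.01 and 1.46 in Peyer. All ranges overlapped, yet Spleen was higher than Liver in 6 of 6 animals, by 1.01 ± 0.35 (limma adjusted p = 0.013), and Peyer lower than Spleen at -1.02 ± 0.35 (adjusted p = 0.016). Both differences lie at the 2-fold threshold, and 6 alternatives ended the first call, median centring and leaving out animal 69, 71 or 73 among them. The second was ended by 7, namely median centring, normexp background correction, the authors' table, and leaving out animal 69, 70 or 75 or the Peyer array of animal 71.

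Of the genes whose products act on RNA, OAS1 and ISG20 carried the largest differences. OAS1 makes the oligoadenylate that activates RNase L, which cuts viral and cellular RNA. Its level was 0.42, 1.73 and 2.43 in Liver, -0.07, 1.21 and 2.89 in Spleen, 3.91, 5.02 and 5.39 in Jejunum and 2.84, 3.94 and 4.68 in Peyer. Every Jejunum sample lay above every Liver and Spleen sample, and Peyer overlapped Spleen only at its lower end. Spleen was lower than Jejunum at -3.40 ± 0.43, a 10.6-fold difference (adjusted p = 3.6e-07), Jejunum exceeded Liver by 3.29 ± 0.43 and Peyer exceeded Spleen by 2.41 ± 0.43.

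Within slides OAS1 stood at -0.99 ± 0.43 in Peyer minus Jejunum (adjusted p = 0.067), with this sign in 6 of 6 animals, and at -0.12 in Spleen minus Liver. Without the Peyer array of animal 71 the Peyer minus Jejunum difference was -1.15 and was called. In the authors' table OAS1 changed sign in Peyer minus Spleen and in Peyer minus Liver.

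OAS2, the larger synthetase encoded next to OAS1, was called in no comparison by the probe used, with levels from 3.06 to 6.02 over all samples. Of its 4 other probes, 2 were called lower in Peyer than in Spleen, at -1.77 and -1.93, and lower in Peyer than in Liver, at -1.69 and -1.88. The mean of all OAS2 probes was called in the same comparisons, at -1.20 (adjusted p = 0.019) and -1.38 (adjusted p = 0.0061). With the probe used, Peyer minus Liver stood at -0.94 and was called without animal 68 (-1.03) or 73 (-1.13). OASL, a relative that lacks synthetase activity and supports RIG-I, had levels of -1.75, -1.55 and -0.55 in Liver, -1.72, -0.0036 and 1.43 in Spleen, -0.69, 0.0049 and 2.29 in Jejunum and -1.41, 0.27 and 1.82 in Peyer. No Liver sample exceeded -0.55, but the lower samples of each other tissue overlapped Liver. Jejunum exceeded Liver by 1.66 ± 0.56 (adjusted p = 0.013), Peyer by 1.62 and Spleen by 1.26 ± 0.56 (adjusted p = 0.05), and 10 alternatives ended the Spleen call. The Peyer call was lost without animal 73 (adjusted p = 0.06) and in the authors' table.

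ISG20, an exonuclease that degrades single-stranded RNA, had levels of -0.23, 0.69 and 1.99 in Liver, 1.61, 3.29 and 3.78 in Spleen, 2.68, 3.33 and 3.68 in Jejunum and 2.35, 3.09 and 4.23 in Peyer. Liver lay below both gut tissues without overlap and overlapped Spleen at one end, where the lowest Spleen sample was animal 68 and the highest Liver sample animal 70. Jejunum exceeded Liver by 2.53 ± 0.36 (5.78-fold, adjusted p = 2e-06), Peyer by 2.39 and Spleen by 2.24. The second ISG20 probe was well above background on 0 of 24 arrays, so these values rest on a single probe.

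The IFIT proteins bind foreign RNA ends and block translation. IFIT2 had levels of 0.21, 0.56 and 1.71 in Liver, 1.75, 1.93 and 2.94 in Spleen, -1.12, 0.37 and 1.73 in Jejunum and -1.44, 0.73 and 1.42 in Peyer. Every Spleen sample lay above every sample of the other tissues, with the nearest Jejunum sample at 1.73. Spleen was higher than Liver by 1.28 ± 0.50 (adjusted p = 0.028) and than Jejunum by 1.71 ± 0.50, and Peyer was lower than Spleen at -1.91 ± 0.50. The call against Liver was lost without animal 68 or 71 and when all IFIT2 probes were averaged.

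IFIT3 was lower in Peyer than in Spleen at -1.08 ± 0.36 (adjusted p = 0.013), with levels of 2.51, 2.71 and 3.77 in Spleen, 1.08, 1.76 and 3.52 in Peyer, 1.40, 2.23 and 2.60 in Jejunum and 1.70, 1.98 and 3.08 in Liver. These ranges overlapped, and the call was lost without animal 69 or 70, under median centring, under normexp and in the authors' table. Another IFIT3 probe was also called lower in Peyer than in Liver (-1.20) and higher in Spleen than in Jejunum (1.26). IFIT1 and IFIT5 were called nowhere by the probe used, with IFIT1 at 0.89 ± 0.35 and IFIT5 at 0.06 ± 0.32 in Spleen minus Liver. The other IFIT5 probe was called lower in Peyer than in Spleen (-1.22) and Liver (-1.06), and higher in Spleen than in Jejunum (1.08).

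The GTPases split by family. MX1 and MX2 encode dynamin-like GTPases that trap incoming viral nucleocapsids, and their higher tissue was Spleen. MX2 had levels of -1.45, -0.68 and 0.54 in Liver, 0.96, 1.33 and 2.91 in Spleen, -1.88, -0.83 and 0.45 in Jejunum and -0.97, -0.56 and 2.70 in Peyer. Spleen lay above Liver and Jejunum without overlap, and above Peyer but for animal 73. Spleen exceeded Liver by 2.11 ± 0.53 (4.31-fold, adjusted p = 0.0012) and Jejunum by 2.32 ± 0.53, and Peyer was lower than Spleen at -1.64 ± 0.53. MX1 was called in Spleen minus Jejunum, at 1.58 ± 0.45 (adjusted p = 0.0042), with levels of 4.33, 5.64 and 6.37 in Spleen, 3.02, 3.99 and 4.82 in Jejunum, 4.00, 4.89 and 5.98 in Liver and 3.66, 4.35 and 6.57 in Peyer. Its Peyer minus Spleen difference was not called (adjusted p = 0.062), but was called with the animal as a replicate block (adjusted p = 0.0035), without animal 68 or 73, when all MX1 probes were averaged and with quantile normalization.

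GBP1 and GBP2 encode guanylate-binding proteins, which attack membranes around intracellular microbes, and both were lowest in Liver. GBP1 had levels of 0.87, 1.93 and 2.42 in Liver, 3.57, 4.29 and 4.47 in Spleen, 4.06, 4.92 and 5.56 in Jejunum and 3.58, 4.36 and 5.08 in Peyer. No Liver sample overlapped another tissue. Jejunum exceeded Liver by 3.11 ± 0.28 (8.63-fold, adjusted p = 1.2e-09), Peyer by 2.57 and Spleen by 2.40 ± 0.28 (adjusted p = 7.2e-08).

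GBP2 had levels of -0.89, 0.25 and 0.85 in Liver, 0.83, 2.03 and 2.33 in Spleen, 2.11, 3.69 and 4.21 in Jejunum and 1.89, 3.22 and 3.81 in Peyer. Here the tissues formed a graded series, with Liver below Spleen but for ranges that met, and Spleen overlapping both gut tissues only at its upper end. Jejunum exceeded Liver by 3.35 ± 0.37 (10.2-fold, adjusted p = 2.7e-08) and Spleen exceeded Liver by 1.67 ± 0.37. Peyer was above Spleen by 1.26 ± 0.37 in 5 of 6 animals, and Spleen below Jejunum at -1.69. In the authors' table the last 2 differences change sign.

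**Figure D2:**
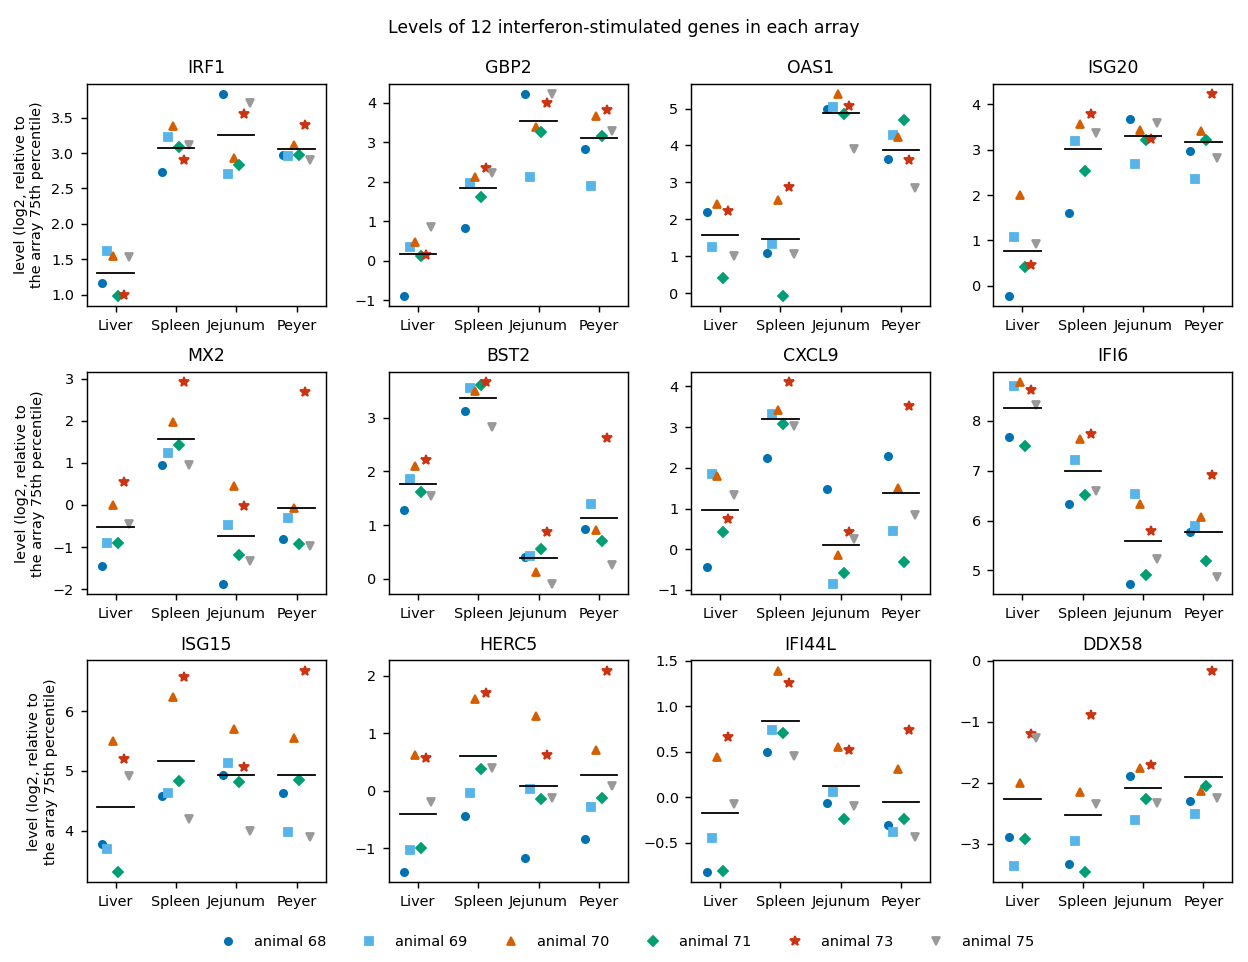
Level of 12 genes in each array (log2, relative to the 75th percentile of the array, vertical axis with its own scale per gene) by tissue, where each symbol is an animal and the bar is the mean of 6. IRF1, GBP2 and ISG20 are lowest in Liver, MX2, BST2 and CXCL9 have their highest mean in Spleen, IFI6 is highest in Liver, and in ISG15, HERC5, IFI44L and DDX58 animal 73 or 70 is the highest of its tissue.

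The ISG15 system was called in no comparison of tissues by the fit with tissue as its only term. ISG15 is attached to other proteins by the ligase HERC5 and removed by the protease USP18, and 0 of these 3 genes were called in any comparison. Their largest differences were those of Spleen minus Liver, at 0.77 ± 0.49 for ISG15, 1.01 ± 0.49 for HERC5 (adjusted p = 0.072) and 0.69 ± 0.34 for USP18. HERC5 was called there with the animal as a replicate block (adjusted p = 0.00011) and with the slide as a block (adjusted p = 0.03), and quantile normalization called ISG15 at 1.34 and USP18 at 1.08. Within a tissue ISG15 spanned 3.30 to 5.50 in Liver, 4.19 to 6.58 in Spleen, 3.99 to 5.70 in Jejunum and 3.90 to 6.68 in Peyer, a spread over animals that exceeded each difference between tissues.

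The membrane-bound restriction factors were highest in Spleen. BST2, which tethers budding virus to the cell surface, had levels of 1.28, 1.74 and 2.22 in Liver, 2.82, 3.52 and 3.66 in Spleen, -0.10, 0.41 and 0.88 in Jejunum and 0.26, 0.92 and 2.62 in Peyer. Spleen lay above all other samples, and Liver above Jejunum. Spleen exceeded Liver by 1.61 ± 0.28 (adjusted p = 2.1e-05) and Jejunum by 2.99 ± 0.28 (7.97-fold), Peyer was lower than Spleen at -2.24 ± 0.28 and Jejunum lower than Liver at -1.39 ± 0.28. BST2 stood at 0.75 ± 0.28 in Peyer minus Jejunum, in 6 of 6 animals, which is below 2-fold.

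IFITM1, which hinders fusion of viral with cellular membranes, had levels of 0.64, 1.43 and 2.06 in Liver, 2.31, 3.18 and 3.67 in Spleen, 1.07, 1.53 and 2.37 in Jejunum and 1.97, 2.27 and 3.36 in Peyer. Spleen and Liver did not overlap. Spleen exceeded Liver by 1.68 ± 0.27 (adjusted p = 7.9e-06) and Jejunum by 1.53 ± 0.27. The difference between Peyer and Jejunum was 0.83 ± 0.27, which passed the adjusted p (0.019) but not the 2-fold threshold.

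Of the IFI genes, IFI6 was the member with its highest level in Liver. IFI6, a small mitochondrial and endoplasmic reticulum protein, had levels of 7.50, 8.48 and 8.77 in Liver, 6.33, 6.90 and 7.74 in Spleen, 4.73, 5.51 and 6.54 in Jejunum and 4.86, 5.82 and 6.91 in Peyer. Liver lay above both gut tissues without overlap and overlapped Spleen. Spleen was lower than Liver at -1.26 ± 0.36 (adjusted p = 0.0037), Jejunum at -2.68 ± 0.36 (6.4-fold lower, adjusted p = 8.4e-07) and Peyer at -2.49. Quantile normalization left Spleen minus Liver without a call at -0.53 (adjusted p = 0.21). IFI6 was also lower in Peyer than in Spleen at -1.23, a call lost under median centring (-0.96), and higher in Spleen than in Jejunum by 1.42, and the authors' table ended every IFI6 call.

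IFI44, a cytoplasmic protein of unsettled function, had levels of -0.56, -0.27 and 0.18 in Liver, -0.31, 0.06 and 0.38 in Spleen, -1.55, -1.04 and -0.38 in Jejunum and -2.24, -1.41 and -0.69 in Peyer. Peyer lay below Liver and Spleen without overlap, at -1.21 ± 0.24 from Liver (adjusted p = 9e-05) and -1.47 ± 0.24 from Spleen, and Spleen exceeded Jejunum by 1.06. The last call was lost under median centring (0.97), under normexp background correction (0.95) and in the authors' table. Its neighbour IFI44L was called in Spleen minus Liver at 1.02 ± 0.26 (adjusted p = 0.0015), with levels of -0.82, -0.26 and 0.67 in Liver and 0.46, 0.72 and 1.39 in Spleen, and the call was lost without animal 68, 69 or 71, under median centring, under normexp and in the authors' table. IFI35 was called nowhere, although Peyer minus Spleen stood at -0.76 ± 0.13 without overlap.

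PARP9 was the single member called between Peyer and Jejunum by the probe used. With its binding partner DTX3L it modifies histones. Its level was -3.17, -2.45 and -1.70 in Jejunum and -5.67, -3.87 and -3.33 in Peyer, with no overlap, and -4.88, -3.31 and -2.68 in Liver and -3.34, -2.78 and -2.07 in Spleen. Peyer was lower than Jejunum at -1.58 ± 0.38 (limma adjusted p = 0.0024, 6 of 6 animals) and lower than Spleen at -1.32 ± 0.38. On slides 4, 5 and 6 alone the difference from Jejunum was -2.55, -0.59 and -1.61, none called from 2 animals a slide. PARP9 was well above background on 5 of 6 Liver arrays and on all arrays of the other tissues, and in the authors' table it stood at -0.91.

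PARP14, another member of the family, had levels of 0.05, 0.56 and 1.45 in Liver, 1.79, 2.11 and 2.49 in Spleen, 1.26, 1.39 and 1.94 in Jejunum and -0.34, 1.08 and 1.69 in Peyer. Spleen lay above Liver and Peyer without overlap, 2.83-fold over Liver (adjusted p = 2.5e-05), and Peyer was lower than Spleen at -1.25 ± 0.26, a call lost under median centring (-0.98). The second PARP14 probe was also called lower in Peyer than in Jejunum, at -1.09, where the probe used gave -0.65. It was called higher in Jejunum than in Liver as well, at 1.37.

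The CXCR3 ligands attract activated T cells and NK cells, and all 3 were higher in Spleen than in Jejunum. CXCL9 had levels of -0.43, 1.04 and 1.85 in Liver, 2.24, 3.21 and 4.10 in Spleen, -0.86, 0.06 and 1.49 in Jejunum and -0.31, 1.17 and 3.52 in Peyer. Spleen lay above Liver and Jejunum without overlap. Spleen exceeded Jejunum by 3.10 ± 0.53 (8.59-fold, adjusted p = 2.1e-05) and Liver by 2.25 ± 0.53 (adjusted p = 0.00061), and Peyer was lower than Spleen at -1.82 ± 0.53 in 5 of 6 animals. In Peyer minus Jejunum it stood at 1.29 ± 0.53 in 6 of 6 animals (adjusted p = 0.053). Without the Peyer array of animal 71 that difference was 1.62 and was called (adjusted p = 0.012). In all, 8 of 17 alternatives called it, median centring, normexp and the animal as a replicate block among them.

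CXCL10 had levels of 2.19, 3.63 and 4.69 in Liver, 3.40, 4.21 and 5.19 in Spleen, 1.12, 2.01 and 3.34 in Jejunum and 1.60, 2.98 and 5.07 in Peyer. Spleen exceeded Jejunum by 2.16 ± 0.53 (adjusted p = 0.0013) without overlap. Peyer was lower than Spleen at -1.38 ± 0.53 (adjusted p = 0.032) and Jejunum lower than Liver at -1.43 ± 0.53 (adjusted p = 0.024), and both of these calls were lost without animal 69 or 70. In all, 8 alternatives ended the first and 4 the second. CXCL11, with levels of -4.93, -2.73 and -2.18 in Liver, -3.40, -2.66 and -0.36 in Spleen, -4.98, -4.29 and -2.84 in Jejunum and -4.59, -2.98 and -1.35 in Peyer, was higher in Spleen than in Jejunum by 1.68 ± 0.54 in 5 of 6 animals (adjusted p = 0.01).

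Markers of immune cells also differed between the tissues. In Spleen minus Liver 4 of 5 T cell markers, 6 of 6 markers of NK and cytotoxic cells, 4 of 6 macrophage markers, 3 of 3 dendritic cell markers and 3 of 3 B cell markers were higher, and 1 macrophage marker, CD14, was lower. In Spleen minus Jejunum 6 of 6 macrophage, 3 of 3 dendritic cell and 3 of 3 B cell markers were higher, but only 1 of 5 T cell markers. Of the 6 markers of NK and cytotoxic cells 3 were higher and 2 lower there. Among all named genes, 21.4% were higher in Spleen than in Liver and 15.5% higher in Spleen than in Jejunum. The macrophage list averaged 3.46 to 4.85 in Spleen (the upper end is animal 70), 2.72 to 3.34 in Liver, 0.18 to 0.72 in Jejunum and 0.65 to 1.41 in Peyer, and the T cell list 1.63 to 2.55, -2.05 to -0.47, 0.88 to 1.36 and 1.30 to 1.84 in the same order. B cell markers were higher in Peyer than in Jejunum in 3 of 3 genes. The part of these cells in the members' differences was not tested.

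Other genes of the interferon pathway, from lists written for this set, gave the following counts. Of 12 measured receptors and signalling genes 5 were higher in Spleen than in Liver and 0 lower, led by the interferon gamma receptor chain IFNGR1 at 1.70 ± 0.13 and the shared type III receptor chain IL10RB at 1.62 ± 0.20. Of 14 genes of nucleic acid sensing and its signalling 8 were higher and 1 lower in the same comparison, led by the endosomal RNA receptor TLR8 at 3.61 ± 0.26. In Peyer minus Jejunum 4 of these genes were higher and 0 lower, among them IRF5, a transcription factor activated by Toll-like receptors, at 1.17 ± 0.18 and the cGAS gene, under its older symbol MB21D1, at 1.16 ± 0.24. Of 10 further induced genes 5 were higher in Spleen than in Liver and 0 lower, and 6 were higher in Jejunum than in Liver and 2 lower. The peptide transporter TAP1 was higher in both, at 2.37 ± 0.30 and 3.07 ± 0.30, and the 2 lower in Jejunum were SAMHD1, which depletes nucleotides, at -2.17 ± 0.23 and XAF1 at -1.53 ± 0.39.

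Of 8 listed interferon genes 4 had a matched probe, and IFNK, IFNL1, IFNL3 and IFNW1 were not measured. IFNA1 and IFNB1 were well above background on 0 of 24 arrays. IFNG, the gene of interferon gamma, was well above background on 4 of 6 Liver arrays and on all 6 of each other tissue, and was higher in Spleen than in Liver by 2.39 ± 0.42 (limma adjusted p = 2.3e-05). IFNE, the gene of the epithelial interferon epsilon, was well above background on all 12 gut arrays, on 0 Liver arrays and on 1 Spleen array, with mean levels of -0.81 ± 0.29 (SD, n = 6) in Jejunum and -1.71 ± 0.67 in Peyer.

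Part of the set also differed between the animals. Fitting animal beside tissue over all 24 arrays, limma's F-test called 17 of 33 members at an adjusted p under 0.05, which is 51.5% where 4.32% of all named genes were called. The 17 were IRF9, the 3 sensors DDX58, IFIH1 and DHX58, OAS2, IFIT1, IFIT3, IFIT5, MX1, MX2, the ISG15 system of ISG15, HERC5 and USP18, BST2, IFI6, IFI44 and IFI44L. The 16 not called include IRF1, STAT2, GBP1, GBP2 and the CXCR3 ligands, whose adjusted p-values ran from 0.21 to 0.85 by the probe used. IRF7, OASL and IFIT2 lay nearer the threshold, at 0.063, 0.091 and 0.096. Other probes of uncalled members passed it, for IRF7 (0.031 and 0.044), STAT2 (0.039) and OAS1 (0.035). Of the 10 called members with several tested probes, 9 had every probe called. Of the members called in no comparison of tissues, fitted without the animal, 9 of 10 were among the 17, namely IRF9, DDX58, IFIH1, OAS2, IFIT1, IFIT5, ISG15, HERC5 and USP18, and IFI35 was called in neither. That fit counts differences between animals as error, so a gene with an animal effect is harder to call between tissues. The 9 of 10 is therefore partly built in, and the share over all named genes was not counted. Other probes of OAS2 and IFIT5 were called between tissues.

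HERC5 had the smallest p. Its level in animals 68, 69, 70, 71, 73 and 75 was -1.42, -1.04, 0.62, -0.99, 0.57 and -0.19 in Liver and -0.43, -0.05, 1.59, 0.39, 1.70 and 0.40 in Spleen. In Jejunum it was -1.17, 0.02, 1.29, -0.14, 0.62 and -0.14, and in Peyer -0.84, -0.28, 0.71, -0.12, 2.09 and 0.08. Animals 70 and 73 were the highest pair in each of the 4 tissues, and animal 68 the lowest. Averaged over tissues as deviation from the tissue mean, animal 68 stood at -1.10 and animal 73 at 1.11 (adjusted p = 2.4e-05).

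IFI44L repeated the pattern over a narrower range. Its levels in the same order of animals were -0.82, -0.45, 0.44, -0.81, 0.67 and -0.07 in Liver, 0.50, 0.74, 1.39, 0.71, 1.26 and 0.46 in Spleen, -0.06, 0.06, 0.56, -0.24, 0.52 and -0.09 in Jejunum, and -0.31, -0.38, 0.31, -0.23, 0.74 and -0.43 in Peyer. Animals 70 and 73 were again above the other 4 in every tissue (adjusted p = 0.00096). Mean deviations reached 0.49 in animal 70 and 0.61 in animal 73, and lay between -0.36 and -0.19 in the others.

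OAS2 had mean deviations of -1.13 in animal 68, 0.78 in animal 70 and 0.61 in animal 73 (adjusted p = 3.9e-05). MX2 spanned the widest range of the 17, from -0.86 in animal 68 to 1.47 in animal 73 (adjusted p = 0.003), and its Peyer level was 2.70 in animal 73 and between -0.97 and -0.07 in the others. ISG15 stood at 0.89 in animal 70, 1.02 in animal 73 and between -0.61 and -0.38 in the others (adjusted p = 0.018), and its second probe gave an adjusted p of 0.013. IRF9 spanned the narrowest, from -0.38 in animal 68 to 0.15 in animal 70 (adjusted p = 0.048). The IRF9 call was lost under 13 of 19 alternatives, that of BST2 under 11, that of IFIT5 under 8 and that of IFI44 under 7.

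Over the 17 genes, animal 73 was the highest in 13 and animal 70 in 4, and animal 68 was the lowest in 11. These ranks are of deviations averaged over the 4 tissues, which were above 0 in animal 73 for 17 of them, in animal 70 for 16 and in animal 68 for 0. On single arrays, animal 70 was above its tissue mean for 11 of 17 in Peyer and animal 68 for 3 of 17 in Jejunum. Over all 33 members the mean deviation of an array for Liver, Spleen, Jejunum and Peyer was 0.36, 0.70, 0.28 and 1.16 in animal 73, and 0.68, 0.51, 0.37 and 0.28 in animal 70. Animal 68 gave -0.68, -0.64, 0.00027 and -0.26. The named genes as a whole deviated by -0.15 to 0.07 on the 24 arrays.

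**Figure D3:**
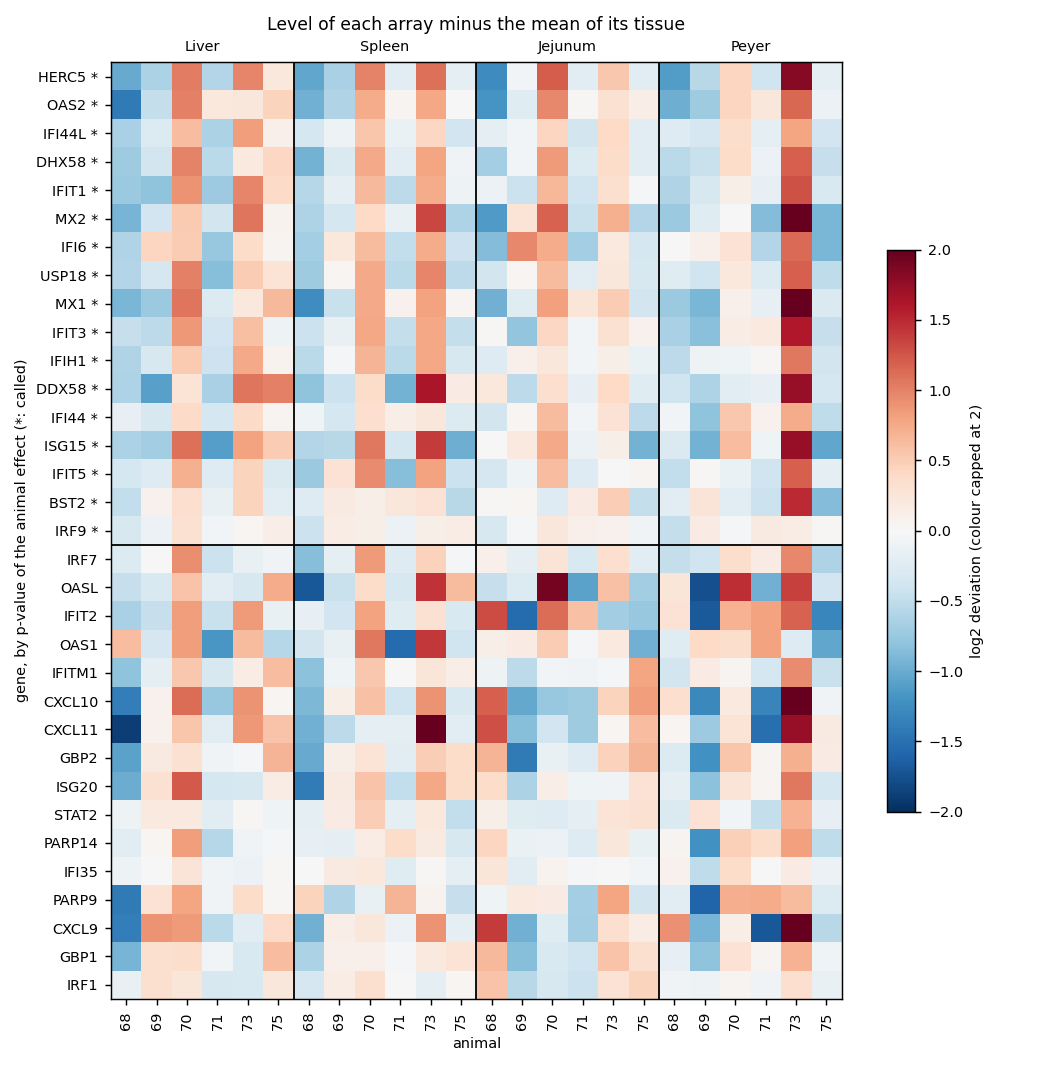
Level of each gene in each array minus the mean of its tissue (log2, colour capped at 2), with genes ordered by the p-value of the animal effect and arrays by tissue and animal. The 17 genes above the line were called, and in them the columns of animal 73 are red, those of animal 70 mostly red and those of animal 68 mostly blue.

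**Figure D4:**
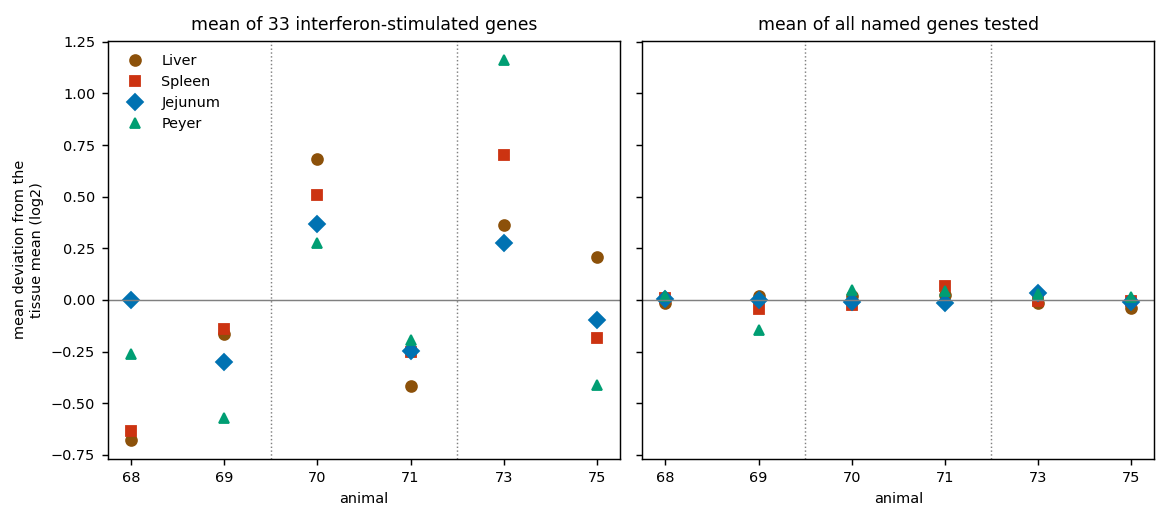
Mean deviation from the tissue mean (log2) over the 33 interferon-stimulated genes (left) and over all named genes tested (right), 1 point per array, with dotted lines between the pairs of animals that share slides. Animal 73 reaches 1.16 in Peyer, animal 70 lies between 0.28 and 0.68, and the named genes stay between -0.15 and 0.07.

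Animals 70 and 71 shared slides, as did 73 and 75, and 68 and 69. Counting only differences between the 2 animals of a slide, 11 of 33 members were called (33.3%, background 2.39%), all among the 17. Animal 70 was above animal 71, and animal 73 above animal 75, in the mean of the members in all 4 tissues. Animal 68 was below animal 69 in Liver (-0.68 against -0.16) and Spleen (-0.64 against -0.14), and above it in Jejunum (0.00027 against -0.30) and Peyer (-0.26 against -0.57). The count was also lower when the arrays of 1 tissue or of animal 73 were left out. It was 9 without the Liver arrays, 3 without Spleen, 11 without Jejunum, 10 without Peyer and 11 without animal 73. The share of all named genes called in these fits on fewer arrays is not given here, so the falls cannot be set against it. HERC5 and IFI44L were called under each of the 19 alternatives.

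Marker lists varied between animals as well. Their mean deviations spanned 0.35 (endothelium) to 0.98 (B cells and hepatocytes) between the highest and lowest animal. The macrophage list stood at 0.26 in animal 70, 0.08 in animal 73 and -0.09 in animal 68. The T cell list stood at 0.33, -0.25 and -0.23, and the list of NK and cytotoxic cells at 0.35, -0.24 and -0.57 in the same animals. The B cell list stood at 0.08, 0.20 and 0.02. In the same order, intestinal epithelium stood at -0.26, 0.53 and -0.22, hepatocytes at -0.35, -0.03 and 0.46, and smooth muscle at -0.35, 0.22 and 0.48. The Spleen array of animal 73 deviated by 2.45 in the list of intestinal epithelium. That of animal 68 deviated by 2.26 in the hepatocyte list. In the macrophage list, animal 70 deviated by 1.03 on its Spleen array and by 0.27 (Liver), 0.09 (Peyer) and -0.34 (Jejunum) on the others, and the CD14 level of that Spleen array was 7.33 where the Spleen median was 0.47. The part of these cells in the animal effect was not tested. Among other genes of the pathway, the animal effect was called by limma's F-test for the Z-form nucleic acid sensor ZBP1 (adjusted p = 0.015) and, among induced genes, for the immunoproteasome subunit PSMB8 (0.0016) and XAF1 (0.0031). In total 0 of 2 interferons, 1 of 14 genes of nucleic acid sensing and 2 of 10 further induced genes were called.

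Within a tissue the members followed each other from animal to animal. The median Pearson r over all pairs of members was 0.68 in Liver (496 pairs of 32 genes), 0.71 in Spleen, 0.32 in Jejunum and 0.73 in Peyer (528 pairs of 33 genes each), and the median over all pairs of named genes above background was between 0.00 and 0.01 in each tissue. The share of member pairs with r above 0.5 was 74.0%, 70.3%, 37.9% and 76.9%, against 18.6%, 21.5%, 17.0% and 24.3% of named pairs. The pairs share 6 arrays and their scaling and are a description with no test. Without animal 73 the Peyer median was 0.44.

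**Figure D5:**
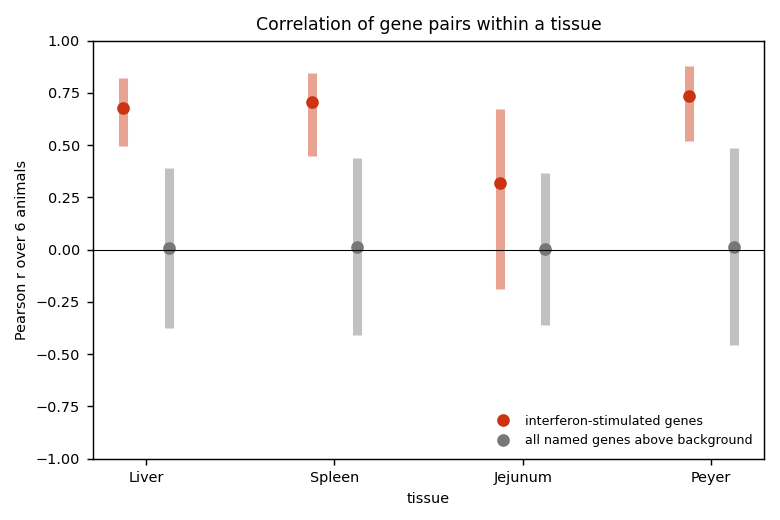
Pearson r over 6 animals between pairs of genes within each tissue, as median (point) and quartiles (bar), for the interferon-stimulated genes and for all named genes well above background. The members' medians are 0.68, 0.71, 0.32 and 0.73, and those of all named genes lie near 0.

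Jejunum had the lowest median r of the 4 tissues. There USP18 and OASL had the highest median r with the other members, at 0.63 each, and CXCL11, IFITM1 and CXCL10 had medians of -0.09, -0.05 and -0.02. In Liver the same chemokines had medians of 0.71 and 0.81 and IFITM1 0.75. OAS1 had a median r of 0.39 (Liver), 0.69 (Spleen), 0.34 (Jejunum) and 0.00 (Peyer). PARP9 was at -0.31 in Spleen.

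For 5 pairs of members, r was tested over the 6 animals of each tissue, 20 relations in all, with exact two-sided permutation tests whose smallest possible p is 0.0014. Pearson's r was positive in 19, and 7 passed after Benjamini-Hochberg adjustment over the 20, against 2 by Spearman's rho. CXCL9 and CXCL10 correlated in Spleen (r = 0.95, exact p = 0.0028, adjusted 0.028, rho = 0.94, exact p = 0.017, adjusted 0.067), in Jejunum (r = 0.91, exact p = 0.0097, adjusted 0.039, rho = 0.89, exact p = 0.033, adjusted 0.095) and in Peyer (r = 0.95, exact p = 0.0014, adjusted 0.028, rho = 1, exact p = 0.0028, adjusted 0.028). Without the 2 animals farthest from the median of CXCL9, r was 0.95, 0.84 and 0.82.

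IFIT1 and IFIT3 correlated in Liver (r = 0.94, exact p = 0.0097, adjusted 0.039, rho = 0.94, exact p = 0.017, adjusted 0.067) and in Peyer (r = 0.95, exact p = 0.0097, adjusted 0.039, rho = 0.89, exact p = 0.033, adjusted 0.095), with r = 0.97 and 0.77 without the 2 farthest animals. In Jejunum this pair passed by rho alone (rho = 1, exact p = 0.0028, adjusted 0.028, r = 0.81, exact p = 0.036, adjusted 0.08, and r = 0.72 without 2 animals). ISG15 and MX1 correlated in Peyer (r = 0.90, exact p = 0.017, adjusted 0.048, rho = 0.83, exact p = 0.058, adjusted 0.12, and r = 0.93 without 2 animals). IRF1 and GBP1 correlated in Jejunum (r = 0.96, exact p = 0.014, adjusted 0.046, rho = 0.94, exact p = 0.017, adjusted 0.067, and r = 0.93 without 2 animals). OAS1 and OAS2, encoded side by side, had an r of -0.06 (Liver), 0.59 (Spleen), 0.14 (Jejunum) and 0.04 (Peyer), with exact p-values from 0.23 to 0.94 (adjusted 0.29 to 0.94). In Spleen the relation of ISG15 with MX1 fell from r = 0.75 (exact p = 0.085) to -0.12 without 2 animals, and rests on those animals.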

How the data were processed

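Total RNA of 24 tissue samples was hybridised in Cy3 to one-colour Agilent arrays and scanned by the authors with Feature Extraction 10.10.1.1, per the file headers. The deposited intensity of a spot is Agilent's processed signal, which is background-subtracted. The authors' deposited table holds log2 values whose 24 columns share the median 8.24 and identical sorted values, as after quantile normalization, and it was used as an alternative. No source used here gives the steps behind it.

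The log2 signal minus each array's 75th percentile was tested with limma 3.58.1 (R 4.3.3) over 42650 of 60305 probes, which had no outlier flag and were above background, by the scanner's own flag, on every array of 1 tissue or more. Tissue was the only term, all 24 arrays entered the fit (20 residual degrees of freedom), and p-values were adjusted by Benjamini-Hochberg over these probes. Calls needed an adjusted p under 0.05 and 2-fold. The animal effect was an F-test with animal beside tissue. In the tissue fit, p-values set a difference against the spread between animals within tissues, and the 4 arrays of an animal count as independent. The F-test sets the animal differences against the spread that tissue and animal leave over. Both hold for these 6 animals, and calls also depend on the probe, the scaling and the slide set. Scripts were tested on simulated data.

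The members, lists and tests were chosen with earlier results of these data known. Every called member is named, and members called in at least 1 comparison are given with their levels. Same-numbered samples come from the same animal: the residuals of 36 same-animal pairs of arrays correlated at a mean r of 0.17 (26 over 0.1, lowest -0.02), against -0.03 in 180 pairs of different animals. Alternatives were median centring, quantile normalization, normexp background correction (offset 50), the authors' table, other filters on dim probes, the mean of a gene's probes, only the 12 arrays compared, animal or slide as a block, each slide alone, each animal left out, the Peyer array of animal 71 left out, the Peyer arrays left out and Spearman's rho. Chosen after seeing the data were, for the animal effect, the fit within slides, leaving out the Liver, Spleen or Jejunum arrays, and leaving out the Peyer array of animal 71.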

Additional observations from a re-analysis of the deposited data

Results flagged for a closer look

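In 11 of 132 groups (33 genes in 4 tissues, 6 animals each) the highest or lowest animal lay apart from the other 5, with a gap to its neighbour above Dixon's critical share of the group's range. Chance sets apart about 1 group in 20. Of the 11, 6 are in Peyer and 6 in animal 73. In Peyer, animal 73 was the highest for DDX58 (-0.16, next -2.06), IFIH1 (2.41, next 1.38), IFIT5 (1.22, next 0.05), MX1 (6.57, next 4.67) and MX2 (2.70, next -0.07), and animal 68 was the lowest for IRF9 (0.032, next 0.46). In Spleen, animal 73 was the highest for CXCL11 (-0.36, next -2.62) and animal 68 the lowest for GBP1 (3.57, next 4.16). In Liver, animal 70 was the highest for IRF7 (3.87, next 2.93) and IFI35 (1.06, next 0.83). In Jejunum, animal 75 was the lowest for OAS1 (3.91, next 4.84).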

How the results depend on the processing

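Of the values for the whole set under an alternative, 150 kept their direction and stayed within 1.5 times of the reported count or within the spread, and the others moved. Of the values for single members, 1685 kept their side of the threshold, 175 lost a call, 59 gained one and 15 reversed, that is, changed sign with a call on at least 1 side. Of the 1685, 12 changed sign with no call on either side, among them OAS2 in Peyer minus Spleen from -0.77 to 0.10. In Peyer minus Jejunum 1 call was reported. Median centring gave 3, normexp 2, the animal as a replicate block 2 (it added CXCL9), slides 4, 5 and 6 alone 0, 0 and 0, leaving out the Peyer array of animal 71 gave 4, and leaving out each animal gave 1 to 3. The block moved no other count by over 1.5 times. In Spleen minus Liver, slides 1, 2 and 3 alone gave 9, 7 and 9 calls in place of 15, from 2 animals each. In Peyer minus Spleen, median centring gave 8 in place of 13. With the authors' deposited values the counts were 4 in Peyer minus Spleen, 6 in Jejunum minus Liver and 5 in Spleen minus Jejunum. That table also reversed 15 single values, all across slide sets, whose mean difference it nearly lacks. These were, in Peyer minus Spleen, OAS1 -0.41, ISG20 -1.14, GBP1 -1.41, GBP2 -1.02, IFI6 0.89 and CXCL10 0.057. In Jejunum minus Liver they were BST2 0.51 and CXCL10 0.23. In Peyer minus Liver they were OAS1 -0.31, MX1 1.09 and BST2 1.23. In Spleen minus Jejunum they were ISG20 1.01, GBP2 0.59, IFI6 -0.60 and IFI44 -0.081. For the animal effect 17 calls became 11 within slides, 9, 3, 11 and 10 without the Liver, Spleen, Jejunum or Peyer arrays, 11 to 16 without 1 animal and 19 without the Peyer array of animal 71. The Peyer median r ranged from 0.44 (without animal 73) to 0.80 without 1 animal. The cause of these changes was not tested, and the share of all named genes called in the fits on fewer arrays is not given here. Over the alternatives made from scanner values, single slides aside, 9 of 15 calls were kept in Spleen minus Liver, 8 of 13 in Peyer minus Spleen, 10 of 11 in Jejunum minus Liver, 7 of 9 in Peyer minus Liver, 11 of 13 in Spleen minus Jejunum and 1 of 1 in Peyer minus Jejunum. Normexp moved the median of all probes in Peyer minus Liver from -0.04 to -0.39, and median centring moved it in Peyer minus Jejunum from -0.16 to 0.02. Dim probes limit PARP9, which the filter on all 24 arrays leaves out.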

Other observations

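The array names some probes of these genes by other spellings, and their values were kept apart. The probe named PKR, an older symbol of EIF2AK2, which encodes the kinase that halts translation on double-stranded RNA, had levels of 0.88, 1.22 and 1.84 (lowest, median and highest of 6 animals) in Liver, 1.33, 1.69 and 2.41 in Spleen, 0.93, 1.21 and 2.10 in Jejunum and -0.39, 0.95 and 2.28 in Peyer, and all 4 ranges overlapped. Its animal effect had a limma adjusted p of 0.0097. Probes spelled mx1 and dhx58 had animal effects at an adjusted p of 0.007 and 0.0017, and Spleen minus Liver differences of 0.70 and 1.06. The probes spelled Irf1 and Ifit2 gave 1.08 and 1.22 in Spleen minus Liver.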
